A study of Homo sapiens with 12 samples.

Results

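ESRP1 and ESRP2 are RNA-binding proteins of epithelial cells that decide which exons enter many messages. They were followed here with 3 other splicing regulators, RBFOX2, QKI and RBM47, and with 5 genes whose alternative exons they are known to regulate, CD44, CTNND1, ENAH, FGFR1 and FGFR2. These 10 genes, of 58721 in the tables, were chosen by name. They were measured in 12 poly(A) RNA-seq libraries of 2 human pancreatic cancer lines, Pa-Tu-8902 and MIA PaCa-2, each carrying a doxycycline (dox)-inducible short hairpin RNA against GOT1 (iDox-shGOT1), the cytosolic aspartate transaminase. Each line was sampled without dox (-dox, the mock group) and after 5 days with dox (+dox), with 3 libraries per group. The hairpin was present in all libraries, including the mock ones. Libraries of a control hairpin with dox were not analysed here, so an effect of dox and an effect of losing GOT1 cannot be told apart.

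ESRP proteins bind GU-rich and GGUGG-like stretches of introns near the exons they regulate. Bound downstream of an exon they usually favour its inclusion, and bound upstream they usually favour its skipping. When epithelial cells take on a mesenchymal state, ESRP levels drop and whole sets of exons switch. RBFOX2, which reads UGCAUG, and QKI, which reads ACUAA-containing sites, act on many of the same exons and often favour the mesenchymal form, while RBM47 is another RNA-binding protein that is enriched in epithelial cells.

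The 5 target genes each have a known pair of forms. CD44 is a hyaluronan receptor whose standard form lacks a block of variable exons (v2 to v10) that variant forms carry. CTNND1 encodes p120 catenin, which stabilises cadherins, and its longest isoform begins at the first of 4 coding starts. ENAH, or Mena, extends actin filaments and has an epithelial exon 11a. FGFR1 and FGFR2 are fibroblast growth factor receptors in which exon IIIb or IIIc closes the third immunoglobulin-like loop and sets which ligands bind. In FGFR1, an exon for the first loop, the alpha exon, can also be skipped.

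The exons that the results turn on are shown here from GRCh38, 5′ to 3′ on the strand of the gene, since their inclusion is what the transcript shares measure. Exons are in capitals with 20 intronic bases on each side, and the given coordinates include those bases. The 3 CD44 exons that distinguish CD44-209, the leading variable form of Pa-Tu-8902, from the standard form are v8 (chr11:35208085-35208226, plus strand), v9 (chr11:35209945-35210074) and v10 (chr11:35211226-35211469).
CD44 v8: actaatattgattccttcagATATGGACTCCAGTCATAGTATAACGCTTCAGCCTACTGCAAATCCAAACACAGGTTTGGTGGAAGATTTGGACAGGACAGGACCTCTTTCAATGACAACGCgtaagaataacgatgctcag
CD44 v9: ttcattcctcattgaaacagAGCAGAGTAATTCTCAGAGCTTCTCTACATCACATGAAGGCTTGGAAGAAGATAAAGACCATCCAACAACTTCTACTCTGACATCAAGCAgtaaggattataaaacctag
CD44 v10: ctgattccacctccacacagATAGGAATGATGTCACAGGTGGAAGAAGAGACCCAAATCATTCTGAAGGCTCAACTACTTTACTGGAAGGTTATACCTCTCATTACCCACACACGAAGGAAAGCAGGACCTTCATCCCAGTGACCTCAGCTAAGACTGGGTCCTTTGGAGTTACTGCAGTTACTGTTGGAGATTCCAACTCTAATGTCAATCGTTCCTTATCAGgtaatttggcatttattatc

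Exon IIIb of FGFR2 lies at chr10:121518662-121518849 on the minus strand, and ENAH exon 11a lies at chr1:225504971-225505073 on the minus strand.
FGFR2 IIIb: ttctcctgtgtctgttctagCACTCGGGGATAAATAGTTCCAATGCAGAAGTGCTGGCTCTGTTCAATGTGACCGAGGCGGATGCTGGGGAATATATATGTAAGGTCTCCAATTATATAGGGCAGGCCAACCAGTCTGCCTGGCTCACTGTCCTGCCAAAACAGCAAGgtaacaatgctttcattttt
ENAH 11a: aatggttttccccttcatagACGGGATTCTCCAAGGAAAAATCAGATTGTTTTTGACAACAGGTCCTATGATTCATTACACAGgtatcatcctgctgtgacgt

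For CTNND1 the choice is of a first coding start, and the coding part of the exon that opens the longest isoform (chr11:57791479-57791673, plus strand) is shown with its start codon in capitals. The last sequence is the coding cassette exon of SLK, a kinase message outside the 10 genes, which is shown because it separated the lines most sharply among the internal exons examined (chr10:104010796-104010928, plus strand). That exon was chosen after its values were seen.
CTNND1 first start: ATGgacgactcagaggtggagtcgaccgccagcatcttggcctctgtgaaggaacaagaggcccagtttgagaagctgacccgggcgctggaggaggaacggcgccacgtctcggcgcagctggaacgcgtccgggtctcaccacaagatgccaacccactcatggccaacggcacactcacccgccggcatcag
SLK cassette: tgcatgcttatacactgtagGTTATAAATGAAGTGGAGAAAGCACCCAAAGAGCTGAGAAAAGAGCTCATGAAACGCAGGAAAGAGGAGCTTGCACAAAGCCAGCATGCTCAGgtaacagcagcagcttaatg

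The libraries held 26226537 to 43406137 gene counts. GOT1, the targeted gene, was at 78.3, 81.5 and 83.4 TPM (RSEM's transcript abundance per length, scaled to the same total in each library) in the mock Pa-Tu-8902 libraries and at 4.51, 3.29 and 3.68 TPM with dox. In MIA PaCa-2 it was at 44.1, 38.9 and 42.7 TPM without dox and at 1.68, 1.95 and 1.87 TPM with dox. The second mock library of MIA PaCa-2 was the lowest of its group in all 10 genes, with a mean absolute log2 difference of 0.252 from the mean of the other libraries of its group, over genes with a mean of at least 1 TPM. That difference was the largest of the 12 libraries. Other libraries were also the lowest of their group in most of the 10 genes. These were the third MIA PaCa-2 dox library (9 genes, difference 0.152), the third mock library of Pa-Tu-8902 (8 genes) and its second dox library (7 genes). Results that rest on the second mock library of MIA PaCa-2 are also given without it. Of 7 ductal carcinoma markers, EPCAM, CDH1 and KRT7 were at or under 1 TPM in MIA PaCa-2, whereas all 7 were above 1 TPM in Pa-Tu-8902. Markers of leukocytes, endothelium, acinar cells and islets did not exceed 0.72 TPM summed in any library. Of the fibroblast markers, COL1A1 rose with dox in Pa-Tu-8902 by 1.87 on the log2 scale, from 3.76, 6.31 and 3.43 TPM to 20.2, 17.5 and 21.2 TPM, and its part in the results was not tested. Nothing in the labels says that the libraries of a group came from separate cultures, so p-values measure the spread between these libraries. In bulk RNA, fewer cells with a message and less of it per cell cannot be told apart.

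The first question was how the regulators and their targets differed between the lines before induction. ESRP1 and ESRP2 were abundant in Pa-Tu-8902 and close to absent in MIA PaCa-2. ESRP1 was at 121, 124 and 119 TPM in mock Pa-Tu-8902 and at 0.05, 0.02 and 0.4 TPM in mock MIA PaCa-2. Over the 3 mock libraries of each line this was 28140 against 11 counts, a ratio of 2451 on the CPM scale with a counting interval of 1370 to 4910 (95%, exact conditional binomial, counting error only). ESRP2, its paralog, was at 31.1, 35.1 and 30.1 TPM against 0.09, 0.02 and 0.04 TPM, or 6302 against 10 counts and a ratio of 604 (328 to 1260). The groups did not come near each other for either gene.

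The receptors showed the opposite order. FGFR1 had 0 counts in mock Pa-Tu-8902 and 7.72, 6.75 and 9.38 TPM (2208 counts) in mock MIA PaCa-2, which was at least 207-fold higher against a floor of 3 counts per library. FGFR2 was low in both lines, at 0.11, 0.07 and 0.03 TPM in Pa-Tu-8902 and 1.46, 1.24 and 1.43 TPM in MIA PaCa-2, a ratio of 39.7 (21.3 to 83.4) in favour of MIA PaCa-2. The lines therefore expressed different members of the group, and the receptor exons could be read in MIA PaCa-2 only, since Pa-Tu-8902 held no more than 7 counts of either receptor in a library.

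**Figure D1:**
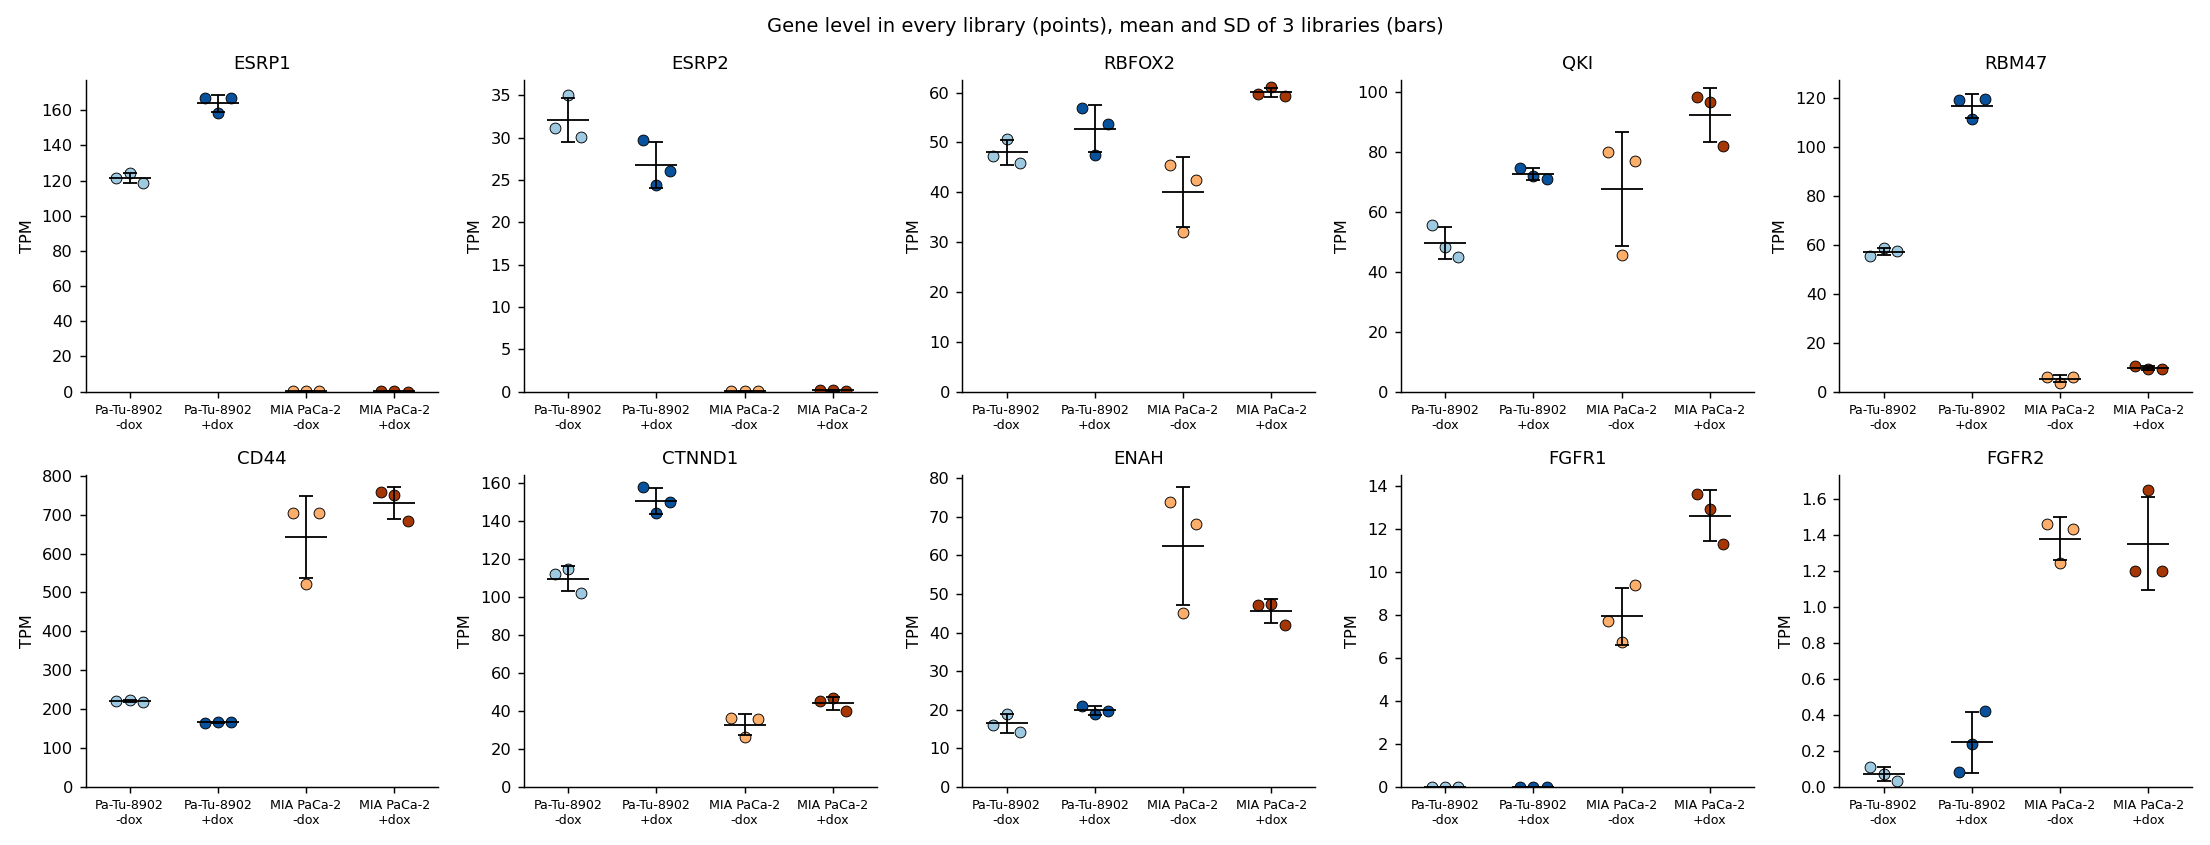
Level of each of the 10 genes in TPM on linear axes, 1 panel per gene, with 1 point per library and the mean and SD of the 3 libraries of each group as bars. ESRP1, ESRP2, RBM47 and CTNND1 are higher in Pa-Tu-8902 and CD44, ENAH, FGFR1 and FGFR2 in MIA PaCa-2, and the second mock library of MIA PaCa-2 is the lowest of its group in every panel.

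Among the other regulators, RBM47 was at 55.5, 58.6 and 57.4 TPM in mock Pa-Tu-8902 and 6.03, 3.58 and 5.91 TPM in mock MIA PaCa-2. The edgeR log2 fold change between the lines was 3.23 (SE 0.119, adjusted p = 2.2e-11). RBFOX2 was at 47.3, 50.7 and 45.9 TPM against 45.4, 32.0 and 42.5 TPM, and its difference did not pass the test (log2 fold change -0.07, SE 0.0799, adjusted p = 0.437 by edgeR). The sign of that difference turned on the TPM scale, where limma gave 0.27 with a pseudocount of 1. QKI was at 55.5, 48.3 and 44.9 TPM against 80.0, 45.6 and 77.2 TPM, groups that overlapped through the low mock library. Its log2 fold change of -0.57 (adjusted p = 1.8e-05 by edgeR) lay under the 1.5-fold limit, and it was -0.68 and past the limit without that library.

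Of the targets, CD44 was at 220, 224 and 219 TPM in mock Pa-Tu-8902 and at 705, 522 and 703 TPM in mock MIA PaCa-2, a log2 fold change of -1.65 (SE 0.0769, adjusted p = 2.7e-10 by edgeR). CTNND1 was at 112, 115 and 102 TPM against 36.2, 26.3 and 35.6 TPM, a log2 fold change of 1.71 (SE 0.0827). ENAH was at 16.0, 19.0 and 14.3 TPM against 73.9, 45.1 and 68.3 TPM, a log2 fold change of -2.30 (SE 0.0944). A call required an adjusted p under 0.01 (edgeR's quasi-likelihood test, Benjamini-Hochberg over all genes tested) and a fold of at least 1.5. By that rule 8 of the 10 genes were called between the lines, 4 higher in each, in a comparison where 58.1% of all 15608 genes tested were called, 28.9% higher and 29.3% lower in Pa-Tu-8902. Without the low library 7 of 8 tested were called, FGFR1 and FGFR2 having dropped out through the filter on low counts. ESRP1, ESRP2, FGFR1 and FGFR2 passed that filter only through the line where they were high, which made their calls likely beforehand. The 10 genes were also chosen with earlier results of these data known. The count of called members is therefore not read as a result about the group.

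The genes of the epithelial and mesenchymal states, listed by name, gave the setting of this difference. All 8 epithelial genes were called higher in mock Pa-Tu-8902, beside 28.9% of all genes tested, and 7 were called without the low library. The largest log2 fold changes were those of CDH1 (E-cadherin), EPCAM and GRHL2, a transcription factor of epithelial cells. Those of CLDN4 and OCLN were 0.82 and 0.62. Of the 8 mesenchymal genes 6 could be tested and 5 were called, and they did not share a direction. VIM (vimentin) and ZEB1, a repressor of epithelial genes, were lower in Pa-Tu-8902, by log2 fold changes of -9.37 and -4.39, whereas CDH2 (N-cadherin) and SNAI2 were higher, by 7.16 and 2.25. Of 35 other splicing regulators 31 were tested and 9 were called, 4 higher and 5 lower in Pa-Tu-8902, a share below that of all genes. MBNL3, a muscleblind protein, was higher by a fitted 9.51 and NOVA2, a neuronal regulator, lower by a fitted 10.2 (log2 fold change -10.21), both with counts near 0 in the lower line, so that these fitted values depend on the prior count.

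The genes whose levels followed ESRP1 and ESRP2 most closely were found by the root mean square difference of log2(TPM + 1) profiles, each centred on its own mean, over 12 libraries and 13743 genes. For ESRP1 they were SPINT1 (0.122), IL1A (0.144), GLUL (0.226), GSDMD (0.231) and F3 (0.237). For ESRP2 they were C9orf64 (0.0656), B3GALNT1 (0.0791), MECOM (0.0926), MIR100HG (0.0944) and THBS1 (0.117). With 2 lines in the data, this likeness mostly describes genes that one line has and the other lacks.

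The second question was which forms of the target messages each line made. Transcript share is the TPM of 1 transcript over the summed TPM of its gene, in percent, as RSEM assigned the reads. In CD44 the lines used different transcripts. CD44-209, which carries v8 to v10 in a protein of 493 residues, took 23.8, 26.4 and 25.8% of CD44 in mock Pa-Tu-8902 and 0.873, 1.37 and 1.24% in mock MIA PaCa-2. The difference was 24.2 percentage points (adjusted p = 4.9e-30, edgeR's diffSpliceDGE over all transcripts). CD44-206, which carries v3 to v10, took 14.2, 13.6 and 14.1% against at most 0.0671%, a difference of 13.9 points (adjusted p = 8.1e-36). The standard form CD44-201, with no variable exon and 361 residues, took 11.4, 12.1 and 10.2% against 27.1, 26.5 and 25.1%, a difference of -15.0 points (adjusted p = 6.5e-07).

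CD44-207 and CD44-227, which are not annotated as coding for a full receptor, were also higher in MIA PaCa-2. CD44-207, annotated as a target of nonsense-mediated decay and lacking a 134-base coding exon (chr11:35180274-35180407) that CD44-201 has, took at most 0.0535% in mock Pa-Tu-8902 and 12.4, 17.4 and 13.8% in mock MIA PaCa-2. CD44-227, a processed transcript of 580 bases that holds v8 and v9, took 2.59, 1.76 and 6.10% against 22.6, 15.2 and 25.2% (difference -17.5 points, adjusted p = 1.6e-09 by edgeR), although limma did not call it. CD44-218, 705 bases long with 2 exons and no variable one, took 15.5 to 22.7% in mock Pa-Tu-8902 and 21.1 to 28.1% in mock MIA PaCa-2, ranges that overlapped, and it did not pass the test (adjusted p = 0.678 by edgeR). Among smaller coding transcripts, the differences of CD44-205 (-2.38 points, adjusted p = 2.3e-11), CD44-210 (-2.94 points, adjusted p = 1.0e-16) and CD44-211 (-0.427 points, adjusted p = 0.0045) were also toward MIA PaCa-2 by edgeR but under 10 points. CD44-205 and CD44-211 hold no variable exon and CD44-210 holds v10 alone. Such short transcripts take a large part of a TPM share from few reads.

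Exon shares sum the transcripts that hold an exon over those that could show it, which for CD44 means both exons beside the variable block. Variable exons were in 77.8, 77.7 and 80.5% of counted CD44 TPM in mock Pa-Tu-8902 and in 10.7, 9.28 and 11.5% in mock MIA PaCa-2. The difference was 68.2 percentage points, with no overlap between the groups, and the exact two-sided permutation test gave p = 0.1, the smallest that 3 against 3 libraries allow. The counted transcripts made up 51.7 to 54.7% of CD44 TPM in mock Pa-Tu-8902 and 44.4 to 48.9% in mock MIA PaCa-2. When every matched transcript was counted, incomplete ones such as CD44-227 included, the shares were 67.3% ± 3.78 (SD, n = 3) and 28.0% ± 5.46 (SD, n = 3), and the difference was 39.3 points. The order of the lines was the same in both counts, and its size depended on the short transcripts.

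**Figure D2:**
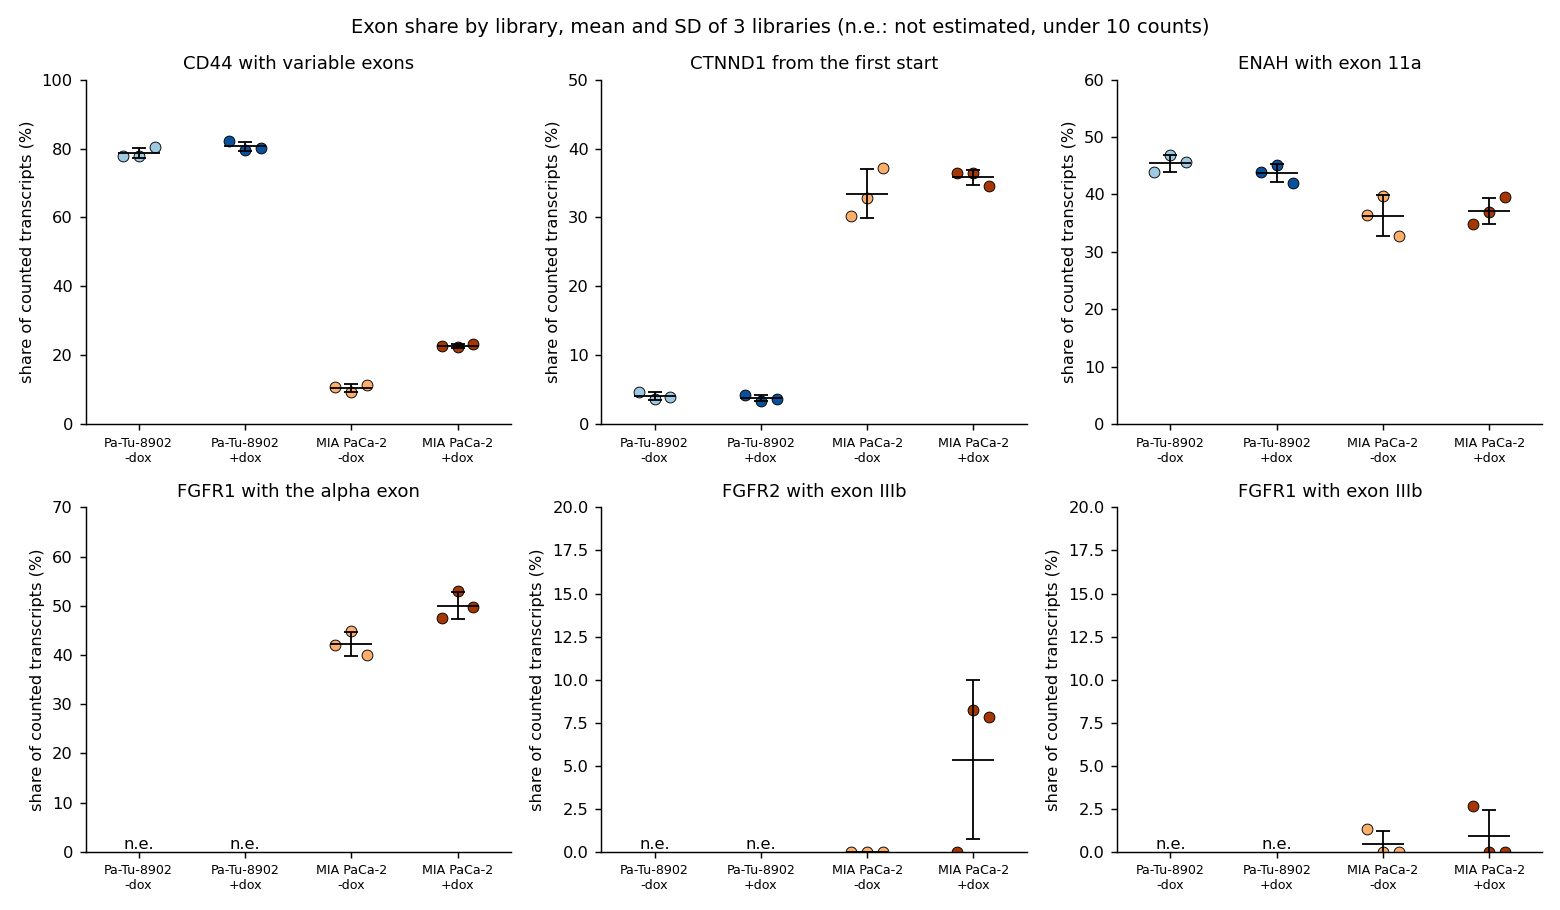
Share of counted transcript TPM in percent that holds each exon or start, on linear axes with ranges that differ between panels, with 1 point per library and the mean and SD of 3 libraries as bars, and n.e. where a library had under 10 counts of the gene. Pa-Tu-8902 lies far above MIA PaCa-2 in CD44 variable exons and far below it in the CTNND1 first start, and the CD44 share of MIA PaCa-2 is higher with dox.

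CTNND1 also split by line. The first coding start, that of the longest p120 isoform, was used in 4.68, 3.58 and 3.86% of CTNND1 TPM in mock Pa-Tu-8902 and in 30.2, 32.9 and 37.2% in mock MIA PaCa-2, a difference of -29.4 points (exact permutation p = 0.1, the smallest possible). The third start, at position 57795613 of chromosome 11 and 4134 bases from the first, took 94.86 to 94.98% in mock Pa-Tu-8902 and 60.4 to 69.2% in mock MIA PaCa-2. The single transcript that carried most of this was CTNND1-201, which begins at the first start. It took 0.205, 0.305 and 0% against 16.7, 18.0 and 20.2%, and its difference of -18.2 points was called (adjusted p = 7.7e-12 by edgeR). CTNND1-223, the leading transcript in both lines, took 53.4 to 55.8% and 36.9 to 41.7%. CTNND1-207 took 13.4 to 14.9% and 5.20 to 5.96%, and CTNND1-230 took 12.6 to 13.2% and 12.3 to 17.7%, which overlapped. Neither CTNND1-223 (adjusted p = 0.534 by edgeR) nor CTNND1-207 (adjusted p = 0.013 by edgeR) was called.

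In ENAH the exon 11a share differed little and depended on 1 transcript. It was 43.9, 46.9 and 45.6% in mock Pa-Tu-8902 and 36.5, 39.7 and 32.7% in mock MIA PaCa-2 (difference 9.14 points, exact permutation p = 0.1). Most of it came from ENAH-202, a retained-intron transcript at 23.5 to 26.5% and 17.2 to 22.4% of the gene. Among protein-coding transcripts alone the difference was -1.71 points, the opposite sign. ENAH-204, the coding transcript with the exon, took 6.86 to 8.05% in mock Pa-Tu-8902 and 10.2 to 15.4% in mock MIA PaCa-2. ENAH-203, without the exon, was the leading transcript of MIA PaCa-2, at 50.1 to 53.4% beside 31.6 to 40.7% in Pa-Tu-8902, while ENAH-207 took 9.03 to 9.93% and 18.1 to 34.3% in the same order. These values thus give no order of the lines for ENAH exon 11a.

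The receptor exons were read in MIA PaCa-2. FGFR2 exon IIIb was in 0% of counted FGFR2 TPM in each of the 3 mock libraries, the counted transcripts holding IIIc instead. FGFR1 exon IIIb was in 1.32, 0 and 0%. The FGFR1 alpha exon was in 42.0, 44.8 and 39.9%, so forms with and without the first loop stood side by side. FGFR1-201 and FGFR1-206, the leading FGFR1 transcripts, took 29.2, 24.7 and 32.1% and 36.2, 18.1 and 15.6%. FGFR2-206 took 47.3, 49.6 and 52.1% of FGFR2, FGFR2-204 took 9.59 to 30.3% and FGFR2-224 took 11.97 to 25.3%.

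Over the 5 target genes, 49 of 156 transcripts could be tested between the lines and 6 were called, at an adjusted p under 0.01 and a share difference of at least 10 points. These were CD44-201, CD44-206, CD44-207, CD44-209, CD44-227 and CTNND1-201, 2 higher and 4 lower in Pa-Tu-8902. Over all 47707 transcripts tested, 1.56% were called, 0.855% higher and 0.706% lower. No ENAH, FGFR1 or FGFR2 transcript was among the called ones, and FGFR1 and FGFR2 had too few counts in Pa-Tu-8902 to show a difference.

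**Figure D3:**
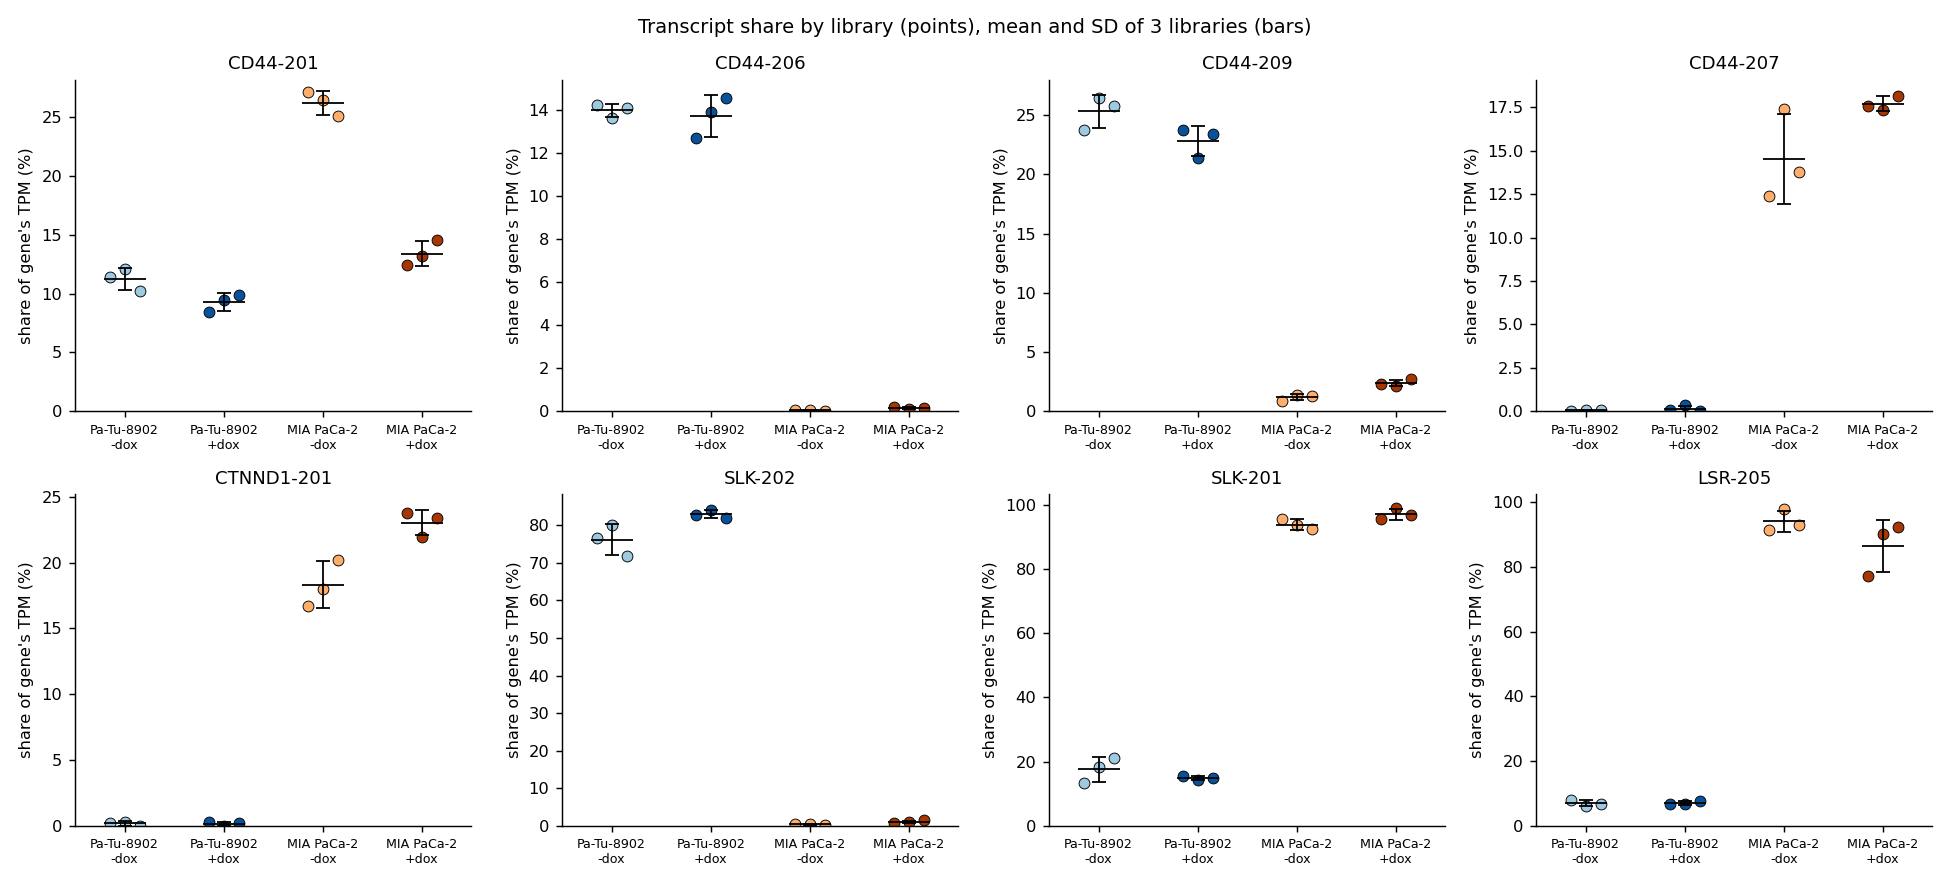
Share of the gene's TPM in percent for 8 transcripts, on linear axes from 0 with ranges that differ between panels, with 1 point per library and the mean and SD of 3 libraries as bars. The v3 to v10 form CD44-206 and the cassette-bearing SLK-202 stand high in Pa-Tu-8902 and near 0 in the other line, and CTNND1-201 the other way round. SLK-201 is higher in MIA PaCa-2 but present in both lines, and CD44-201 is lower with dox in MIA PaCa-2.

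A list of 22 further genes with ESRP-regulated exons, also chosen by name, was read in the same way. Between the mock lines 26 of 134 transcripts tested were called, beside 1.56% of all transcripts. They lay in 13 of the genes, and 11 genes had a called transcript without the low library. The share of all genes with a called transcript is not given, so the 13 have no background to be read against. The list was chosen with earlier results of these data known, and transcripts of the same gene trade share with each other. The count of called transcripts is therefore not read as a result about the list. Among the 13 were DNM2, EPB41L5, ITGA6, LSR, NUMB, OSBPL3, PLEKHA1, RALGPS2, SCRIB, SLK, TCF7L2 and UAP1. SLK-202, which differs from SLK-201 by the 93-base cassette exon shown above, took 76.6, 80.1 and 71.8% in mock Pa-Tu-8902 and 0.348, 0.578 and 0.252% in mock MIA PaCa-2. SLK-201, without the exon, took 13.4, 18.3 and 21.1% against 95.7, 93.6 and 92.4%. The form with the exon was thus near absent in MIA PaCa-2, while Pa-Tu-8902 made both forms, mostly the one with it.

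LSR, a receptor of tricellular junctions, was made almost only as LSR-205 in MIA PaCa-2, at 91.5, 97.8 and 92.8%, and at 8.06, 6.22 and 6.58% in Pa-Tu-8902. LSR-203, which has a 120-base exon that LSR-205 lacks, took 38.0, 41.4 and 38.3% against 1.79, 0 and 1.91%. For ITGA6, an integrin subunit of the laminin receptor, ITGA6-201 took 67.0 to 68.7% against 33.0 to 42.3%, and ITGA6-202 took the reverse. Both genes were themselves higher in mock Pa-Tu-8902, LSR by a log2 fold change of 4.95 and ITGA6 by 4.17. Their MIA PaCa-2 shares were thus read from a lower level of message.

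The introns beside these exons were searched on the gene's strand, 250 bases before and after each exon, for TGCATG (RBFOX), ACTAAC (QKI), and TGGTGG and the shorter GGTGG it contains (ESRP). Over 168539 internal coding exons, 14.3%, 5.63%, 21.5% and 49.9% held them on either side. CD44 v8 had 2 and v9 had 3 TGGTGG after the exon, the nearest 83 and 75 bases away, and v10 had 1 before it at 49 bases. CD44 v2 to v7 had neither TGGTGG nor GGTGG, and TGCATG stood 7 bases before v7 and 221 bases after v10. TGGTGG also stood before the CTNND1 first-start exon, at 195 bases, before the FGFR1 alpha exon, at 6 bases, and before FGFR1 IIIc, at 146 bases. ACTAAC stood 131 bases after the FGFR1 alpha exon, and TGCATG stood 221 bases before FGFR2 IIIc. FGFR2 IIIb had 2 TGGTGG before it, the nearest at 64 bases. The SLK cassette had 3 TGCATG before it, the nearest 14 bases away and in the printed stretch, and 1 ACTAAC at 132 bases. ENAH 11a had none of the 4. A match describes letters in a window and is not a measured site.

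The third question was what dox did in each line. By the main edgeR rule RBM47 and QKI rose in both lines and no other member was called. In MIA PaCa-2 the calls depended on the setting. Over the main and alternative settings, 16 in all, RBM47 was called there in 16 and QKI in 12. FGFR1 was called in 4 of them, RBFOX2 in 3 and ENAH, which fell, in 3. These counts include a setting with no fold limit, the only one in which CD44 and CTNND1 were called. RBM47 went from 55.5, 58.6 and 57.4 TPM to 119, 111 and 120 TPM in Pa-Tu-8902, a log2 fold change of 1.03 (SE 0.0453, adjusted p = 4.9e-08 by edgeR). In MIA PaCa-2 it went from 6.03, 3.58 and 5.91 TPM to 10.5, 9.32 and 9.23 TPM, a log2 fold change of 0.92 (SE 0.116, adjusted p = 9.3e-05), and of 0.77 without the low mock library. The groups did not overlap in either line.

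QKI went from 55.5, 48.3 and 44.9 TPM to 74.8, 72.1 and 70.9 TPM in Pa-Tu-8902 (log2 fold change 0.63, SE 0.0438, adjusted p = 1.2e-06 by edgeR). In MIA PaCa-2 it went from 80.0, 45.6 and 77.2 TPM to 98.3, 96.7 and 82.2 TPM (log2 fold change 0.64, SE 0.0703, adjusted p = 3.5e-05). Both values lay close to the 1.5-fold limit. Without the low mock library the MIA PaCa-2 value was 0.57 and was not called, and limma on log2(TPM + 1) gave 0.55 and 0.48 in the respective lines, also under the limit.

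In Pa-Tu-8902, 2 of 8 tested members were called, both higher, beside 16.3% of all 14949 genes (9.22% higher), and in MIA PaCa-2, 2 of 8, both higher, beside 12% of 14589 (4.36% higher). In both lines 2 of 8 lay above these shares, more so for genes called higher. With 8 genes tested, the counts are too small to be read as a result about the group. FGFR1 and FGFR2 in Pa-Tu-8902 and ESRP1 and ESRP2 in MIA PaCa-2 were too low to test.

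**Figure D4:**
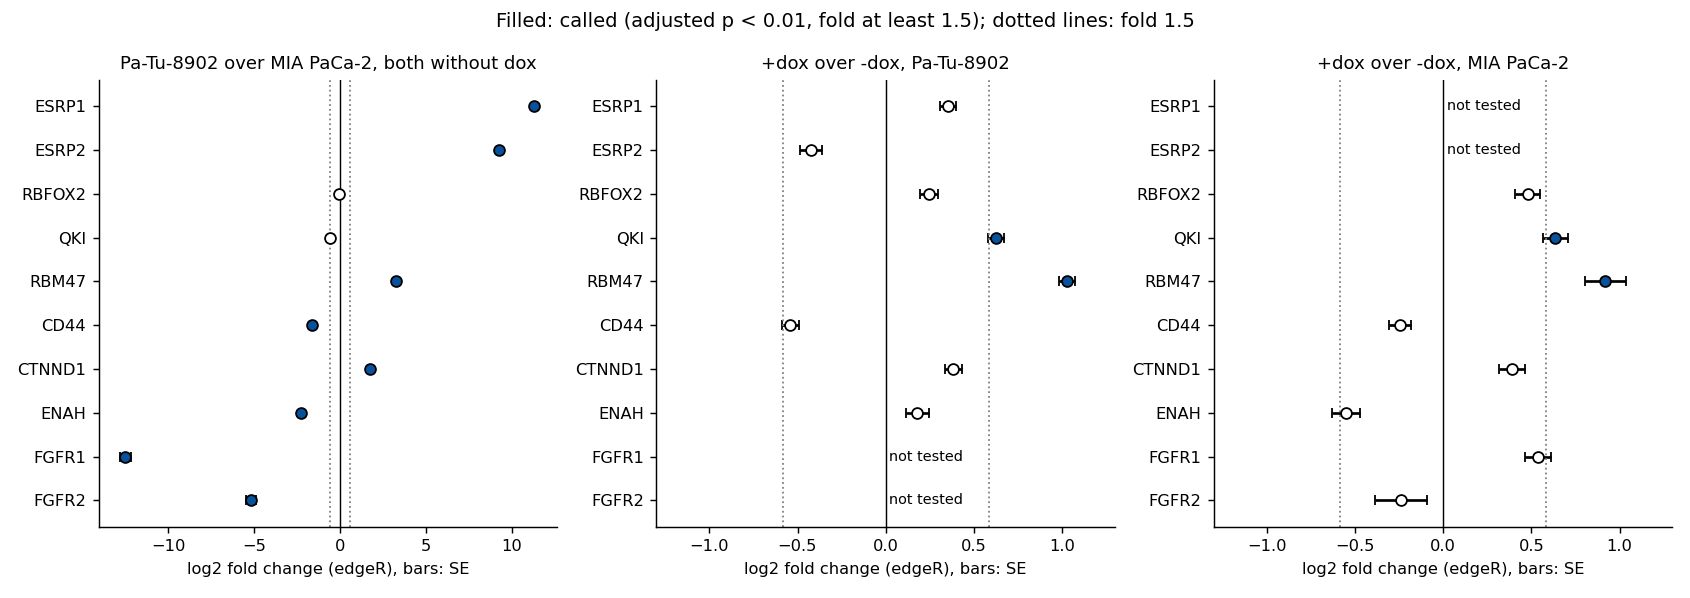
edgeR log2 fold change of each gene with its SE as bars, for the mock lines (left) and for dox in each line (centre and right, on a narrower axis), with called genes filled and the 1.5-fold limit dotted. RBM47 and QKI are the filled points in both dox panels, and ENAH lies on opposite sides of 0 in them.

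The ESRP genes themselves were not called. ESRP1 was at 167, 158 and 167 TPM with dox in Pa-Tu-8902, above all 3 mock libraries, with a log2 fold change of 0.35 (SE 0.0453, adjusted p = 8.7e-05 by edgeR) that was under the fold limit. ESRP2 was at 29.7, 24.4 and 26.1 TPM with dox, below all 3 mock libraries, with a log2 fold change of -0.42 (SE 0.0624, adjusted p = 0.00022), also under it. In MIA PaCa-2 neither exceeded 0.23 TPM with dox. RBFOX2 had log2 fold changes of 0.25 for Pa-Tu-8902 and 0.48 for MIA PaCa-2, both under the limit.

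Among the targets, ENAH differed between the lines in its response. It was at 21.0, 18.9 and 19.5 TPM with dox in Pa-Tu-8902, beside 16.0, 19.0 and 14.3 TPM without (log2 fold change 0.18, SE 0.0646). It was at 47.0, 47.5 and 42.0 TPM with dox in MIA PaCa-2, beside 73.9, 45.1 and 68.3 TPM without (log2 fold change -0.55, SE 0.0783). The difference between these effects was 0.73 (SE 0.107, adjusted p = 6.3e-05 by edgeR). It was the only called member of 10 by edgeR, beside 10.4% of all 16544 genes. For CD44 the difference of dox effects was -0.29 (SE 0.0875, adjusted p = 0.018), which was not called. It was -0.61 and called with effective gene lengths and in limma on the log2 TPM scale, and limma did not call ENAH. Without the low mock library, which lay among the dox libraries, the MIA PaCa-2 value was -0.64 and called, and the difference was 0.83.

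CD44 was at 164, 166 and 168 TPM with dox in Pa-Tu-8902, below all 3 mock libraries (log2 fold change -0.54, SE 0.0497, adjusted p = 8.1e-06 by edgeR), under the fold limit. In MIA PaCa-2 it was at 759, 750 and 684 TPM beside 705, 522 and 703 TPM. There its log2 fold change in counts was -0.24 (adjusted p = 0.011) and on the log2(TPM + 1) scale 0.20, so no direction is given. CTNND1 had log2 fold changes of 0.38 and 0.39 in the respective lines. FGFR1 went from 6.75 to 9.38 TPM to 11.3 to 13.7 TPM in MIA PaCa-2 without overlap (log2 fold change 0.54, SE 0.0752, adjusted p = 0.0002), under the limit. FGFR2 was at 1.20, 1.65 and 1.20 TPM with dox, on both sides of the 1.46, 1.24 and 1.43 TPM of the mock libraries (log2 fold change -0.24, adjusted p = 0.216 by edgeR).

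No CD44 transcript met the rule for a call with dox in MIA PaCa-2, and the values lay as follows. The standard form CD44-201 went from 27.1, 26.5 and 25.1% to 12.4, 13.2 and 14.5% of CD44, a difference of -12.8 points without overlap. Its adjusted p was 0.025 by edgeR, which missed the threshold, and it was 0.00069 without the low mock library and 0.0059 among transcripts with at least 50 counts, where it was called. Over the other planned settings and libraries left out it ranged up to 0.275. CD44-210, with v10 alone, went from 3.18, 2.36 and 3.36% to 6.36, 6.65 and 6.601% (adjusted p = 4.5e-09 by edgeR). CD44-209 went from 0.873, 1.37 and 1.24% to 2.27, 2.13 and 2.68% (adjusted p = 8.3e-05). Transcripts without a variable exon had higher shares with dox as well. CD44-211 went from 0.489, 0.475 and 0.456% to 2.06, 2.20 and 2.40%, with the lowest adjusted p of all target transcripts in this comparison (6.3e-10 by edgeR). CD44-205 went from 2.47, 1.58 and 3.09% to 5.96, 5.43 and 5.73% (adjusted p = 1.7e-05), and CD44-207 went from 12.4, 17.4 and 13.8% to 17.6, 17.4 and 18.2% (adjusted p = 0.0099). These 5 differences were under 10 points and so were not calls. In Pa-Tu-8902, CD44-208, which carries v2 to v10, went from 0.758, 1.43 and 1.298% to 2.82, 2.10 and 2.5% (adjusted p = 0.0092), also under 10 points.

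Summed over the variable exons, the MIA PaCa-2 share went from 10.7, 9.28 and 11.5% to 22.7, 22.2 and 23.3%. The difference was 12.3 points without overlap (exact permutation p = 0.1, the smallest possible). It was 9.22 points in shares of expected counts, 23.4 points among protein-coding transcripts and 9.58 points when incomplete transcripts were counted. In Pa-Tu-8902 the share was 82.1, 79.5 and 80.2% with dox, a difference of 1.94 points from the mock libraries, with overlap (exact permutation p = 0.3). There it was 4.44 points without overlap in shares of expected counts (exact permutation p = 0.1, the smallest possible), 2.12 points among protein-coding transcripts and -2.12 points when incomplete transcripts were counted. Whether the exon shares of the lines responded differently was not tested. ESRP1 and ESRP2 were at no more than 0.4 TPM in every MIA PaCa-2 library, with and without dox.

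The remaining exons moved less. The CTNND1 first start was at 36.5, 36.5 and 34.6% with dox in MIA PaCa-2 and 4.20, 3.41 and 3.63% in Pa-Tu-8902, overlapping the mock libraries in both (exact permutation p = 0.4 and p = 0.6). CTNND1-201 went from 16.7, 18.0 and 20.2% to 23.7, 21.96 and 23.4% in MIA PaCa-2 without overlap, a difference under 10 points. It did not pass the test (unadjusted p = 0.143 by edgeR). A minor CTNND1 transcript, picked after its values were seen, went from 1.94, 1.26 and 2.62% to 0% in every MIA PaCa-2 dox library. Its adjusted p was 1.7e-05 by edgeR, and 3.6e-05 for a different response between the lines, the lowest of the target transcripts. Both differences were under 10 points. ENAH 11a was at 34.9, 37.0 and 39.5% with dox in MIA PaCa-2 and at 43.97, 45.1 and 42.1% in Pa-Tu-8902 with dox, again with overlap. The FGFR1 alpha exon was at 47.5, 53.0 and 49.7% with dox in MIA PaCa-2, above all 3 mock libraries by a mean of 7.79 points (exact permutation p = 0.1, the smallest possible). FGFR2 IIIb was at 0, 8.21 and 7.83% with dox beside 0% in the mock libraries (exact permutation p = 0.4), which these depths could not separate. FGFR1 IIIb was at 2.66, 0 and 0% with dox. Single receptor transcripts varied widely between libraries of a group, FGFR2-206 standing at 39.2, 0 and 30.3% and FGFR1-201 at 30.6, 21.1 and 18.4% with dox. FGFR2-224 was at 37.5, 35.8 and 34.5%, above all 3 mock libraries, but it did not pass the test (unadjusted p = 0.149 by edgeR). Of the other named receptor transcripts, FGFR1-204 and FGFR1-238 did not exceed 21.2% in a MIA PaCa-2 library, nor FGFR2-202, FGFR2-212, FGFR2-219 and FGFR2-227 a share of 26.1%. FGFR2-210, FGFR2-214, FGFR2-217 and FGFR2-226 were at 0 in every MIA PaCa-2 library and FGFR1-243 at no more than 1.94%, and these met the rule for naming through Pa-Tu-8902 libraries with at most 7 counts of the gene.

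No target transcript was called with dox, with 37 tested for Pa-Tu-8902 and 46 for MIA PaCa-2 by edgeR, beside 0.0791% and 0.0639% of all transcripts. At an unadjusted p under 0.05 there were 1 and 12 by edgeR, and 2 and 18 by limma, which also called none. None of 58 was called for a different response between the lines, beside 0.0693% of all, with 10 at an unadjusted p under 0.05 by edgeR and 13 by limma. Among the 22 further ESRP-regulated genes, DNM2-201, a form of the membrane-scission GTPase dynamin 2, was the only called transcript with dox. It fell in Pa-Tu-8902 from 20.6, 19.0 and 23.1% to 10.3, 10.8 and 10.9% (adjusted p = 4.1e-07 by edgeR). UAP1-204 was not called with dox, although its share fell in MIA PaCa-2 without overlap. It went there from 73.95, 71.08 and 72.05% to 42.97, 43.49 and 43.22%. SLK-202 was at 82.0 to 84.1% with dox in Pa-Tu-8902, against 0.777 to 1.41% for MIA PaCa-2 with dox, values that did not overlap between the lines under either condition.

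At the gene level the counts with dox are read against the 16.3% of all genes called in Pa-Tu-8902 and the 12% called in MIA PaCa-2. Those of the regulators lay below these shares. Of the regulators, 1 of 29 tested was called with dox in Pa-Tu-8902, MBNL3, which fell by 0.64 on the log2 scale, and 1 of 30 in MIA PaCa-2, NOVA2, which rose by 1.14. Of the 22 ESRP-regulated genes 2 were called in Pa-Tu-8902, MAGI1 (1.11) and UAP1 (-1.34), and 3 in MIA PaCa-2, PLEKHA1 (0.81), CSF1 (0.62) and LSR (-0.99). Of the 8 epithelial genes 4 were called in Pa-Tu-8902, 2 in each direction, including CDH1 at 0.86 and CLDN7 at -0.87, and 0 of 3 tested in MIA PaCa-2 by edgeR. SNAI2, a repressor of epithelial genes, fell with dox in Pa-Tu-8902 (-0.79) while it rose in MIA PaCa-2 (1.02), and it was the 1 mesenchymal gene called in each line. The difference of its effects was -1.82 (adjusted p = 2.8e-05 by edgeR).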

How the data were processed

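Poly(A) RNA of 12 libraries, 3 per group, was sequenced from directional libraries. Per the labels the authors used bcl2fastq, Trimmomatic (0.39), STAR (2.5.2a) and RSEM (1.3.1) with GRCh38, and deposited expected counts and TPM per gene and transcript, and IsoPct, the percent of a gene's TPM in each transcript. Estimated counts that were not whole (5.34% of gene values, 34.4% of transcript values) were rounded. RSEM splits reads shared by transcripts, which makes shares of overlapping transcripts uncertain. Transcript shares computed from the deposited TPM differed from IsoPct by at most 0.379 points.

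The members and lists were chosen with earlier results of these data known. Genes and transcripts that reached 10 counts in 3 or more of a comparison's libraries were tested with edgeR (4.0.16, R 4.3.3) with TMM, glmQLFit and glmQLFTest, and with diffSpliceDGE for transcripts. Benjamini-Hochberg adjustment covered all features tested. Calls needed an adjusted p under 0.01 and a fold of 1.5 or a share difference of 10 points. DESeq2 (1.42.0), limma (3.58.1, log2 of TPM plus a pseudocount), effective lengths, other filters, a replicate block and each library left out were alternatives. Scripts were tested on simulated data. The standard error of a log2 fold change was its size over the square root of the quasi-likelihood F. Exon structures came from GENCODE annotation of a later release on the same build, matched by transcript identifier (153 of 156 target transcripts, 138 with the same length), and unmatched ones held at most 6.13% of a gene. Exon shares were compared by exact two-sided permutation tests and given only where each library held at least 10 counts of the gene. Named genes were the 10 members, target transcripts with a mean share of at least 10% in a group (30, the other 126 by count), and called genes of the lists. CD44-205, CD44-208, CD44-210 and CD44-211, and the SLK, LSR, ITGA6 and UAP1 transcripts shown, were chosen after their values were seen. Depth was 26226537 to 43406137 counts, and intervals and floors cover counting error only. Some items examined are not reported here.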

Additional observations from a re-analysis of the deposited data

Results flagged for a closer look

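ENAH responded to dox differently in the lines, by a test of the difference itself. The log2 fold change was 0.18 for Pa-Tu-8902 and -0.55 for MIA PaCa-2, and their difference was 0.73 (SE 0.107, adjusted p = 6.3e-05 by edgeR). It did not pass the threshold of 0.01 in limma on TPM.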

How the results depend on the processing

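Calls among the 10 genes with dox numbered 2 per line. At an adjusted p under 0.05 with no fold limit they were 8 for Pa-Tu-8902 and 7 for MIA PaCa-2 (7619 and 6116 of all genes), and 2 for the difference between lines (4432 of all). With effective lengths as offsets they were 1 in Pa-Tu-8902 and 2 for the difference, and limma gave 1 in Pa-Tu-8902 with either pseudocount and 1082 genes in all in MIA PaCa-2. Called transcripts, 38 for dox in Pa-Tu-8902, 29 for MIA PaCa-2, 745 between lines and 40 for the difference of responses, became 70, 62 and 79 (difference of responses) at 5 points, and 11, 14, 405 and 10 at 20 points, where 1 target transcript remained between the lines. limma gave 2 for Pa-Tu-8902, 1 for MIA PaCa-2 and 2 for the difference of responses. At 50 counts 1 target transcript was called in MIA PaCa-2.

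Replicate numbers did not pair the libraries (correlations of same-numbered deviations -0.121 to 0.0987). With a replicate block the transcript calls were 22, 14, 448 and 22, and no member's call changed.

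The log2 fold change of CD44 in MIA PaCa-2 turned to 0.13 with effective lengths and 0.20 in limma. That of RBFOX2 between lines turned to 0.20, 0.27 and 0.28. The differences of dox effects near 0 turned sign for CTNND1 (0.0106 and 0.0105 with DESeq2's scaling, 0.0213 unfiltered, 0.0199 with lengths, 0.0289 and 0.0216 in limma) and QKI (0.00577, 0.0057, 0.0159, 0.0800, 0.0621 and 0.0642), and for FGFR1, at 0 in Pa-Tu-8902, to -0.61 and -0.62 in limma.

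The ENAH 11a difference with dox in Pa-Tu-8902 became 1.14 points among coding transcripts, and that between lines 3.82 in counts and -1.71 among coding transcripts. The CD44 variable-exon difference became 4.44 in counts and -2.12 with incomplete transcripts (a count chosen after seeing the data) in Pa-Tu-8902, 9.22, 23.4 and 9.58 for MIA PaCa-2, and 59.6, 63.5 and 39.3 between lines. The cause of these changes was not tested.

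With one library left out, target transcripts called in MIA PaCa-2 numbered 0 to 1, and all transcripts called 25 to 37 for Pa-Tu-8902, 11 to 40 for MIA PaCa-2 (lowest without a dox library) and 382 to 665 between lines (lowest without a Pa-Tu-8902 library). Differences of dox effects ranged from -0.0511 to 0.0888 for CTNND1, -0.0829 to 0.0674 for QKI, -0.11 to 1.58 for ESRP1, -0.54 to 1.73 for FGFR1 and -0.0119 to 0.27 for RBM47. RBFOX2 between lines ranged from -0.19 to 0.0211, the CTNND1 first start in Pa-Tu-8902 from -0.526 to 0.0231 points, ENAH 11a in MIA PaCa-2 from -0.954 to 2.56 and FGFR1 IIIb from -0.441 to 0.888. Depth limits FGFR2 exons and both receptors in Pa-Tu-8902.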
